A study of Homo sapiens with 14 samples.

Results

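The 9 genes LRAT, PPARG, GFAP, LHX2, DES, NGFR, HAND2, GATA4 and TCF21, which mark resting hepatic stellate cells or hold their identity, were examined among 19794 protein-coding genes. They were taken as a named set. For each gene, peaks were collected from its body in GENCODE on hg19 with 20 kb added at each end. The data came from CUT&Tag, in which an antibody tethers a transposase to chromatin and the released fragments are sequenced. All samples were wild type LX-2, an immortalised human stellate cell line, kept for 2 days on matrix that was either soft or stiff. Antibodies against phosphorylated JUN (p-JUN), H3K4me3 and H3K27me3 each gave 2 libraries per matrix, and H3K27ac gave 1 merged list per matrix, so 14 peak lists were available. Titles marked soft libraries 2K and stiff histone libraries 40K, but the stiff p-JUN libraries were titled TCP, the study's abbreviation for culture plastic. For p-JUN the matrix and the plastic cannot be told apart. Each assay used 10000 cells per the labels and more per the methods. The study's methods call its sequencing replicates biological, but the labels name no separate culture per library, so errors and p-values measure the spread between these libraries only. All results are from a single cell line.

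Resting stellate cells of the liver store vitamin A as retinyl esters in lipid droplets. After injury they lose the droplets, divide and deposit collagen as myofibroblasts. LRAT esterifies retinol for storage, PPARG is the nuclear receptor that drives fat storage and opposes activation, and LHX2, HAND2, GATA4 and TCF21 are transcription factors of the resting or embryonic mesenchyme. GFAP and DES are intermediate filament proteins long used to stain stellate cells, and NGFR is the low-affinity neurotrophin receptor. H3K4me3 marks promoters that are in use or ready for use, H3K27ac marks active promoters and enhancers, and H3K27me3 is laid down by Polycomb on genes kept off. Promoters with H3K4me3 and H3K27me3 together are called bivalent and are common at developmental regulators. JUN is a subunit of AP-1, which binds the sequence TGAGTCA or its reverse complement TGACTCA.

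The following sequences lay under p-JUN regions listed in all 4 libraries and are a selection of those, not a fair sample. Each is 101 bases of the hg19 plus strand, centred on the summit of the region's strongest peak, and capitals mark the AP-1 sequence where it occurred. The distance is that of the region's centre from the gene start in kb along the direction of transcription, with negative values upstream.
PPARG, 118.6 kb (chr3:12447426-12447526): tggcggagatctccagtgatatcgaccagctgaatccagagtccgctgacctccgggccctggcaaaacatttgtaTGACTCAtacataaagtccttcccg
PPARG, 113.7 kb (chr3:12442460-12442560): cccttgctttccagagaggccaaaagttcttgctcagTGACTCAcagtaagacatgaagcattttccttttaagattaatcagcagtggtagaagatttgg
PPARG, 108.3 kb (chr3:12437195-12437295): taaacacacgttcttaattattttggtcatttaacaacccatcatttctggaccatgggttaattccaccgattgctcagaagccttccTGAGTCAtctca
NGFR, 13.3 kb (chr17:47585921-47586021): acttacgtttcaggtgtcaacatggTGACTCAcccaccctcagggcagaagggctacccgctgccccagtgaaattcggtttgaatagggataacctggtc
DES, -11.5 kb (chr2:220271678-220271778): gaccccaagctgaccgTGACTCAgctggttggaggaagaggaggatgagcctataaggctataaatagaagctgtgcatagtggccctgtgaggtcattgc
PPARG, 58.0 kb (chr3:12386803-12386903): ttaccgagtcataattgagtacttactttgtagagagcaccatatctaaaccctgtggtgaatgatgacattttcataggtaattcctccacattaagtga
TCF21, 0.5 kb (chr6:134211018-134211118): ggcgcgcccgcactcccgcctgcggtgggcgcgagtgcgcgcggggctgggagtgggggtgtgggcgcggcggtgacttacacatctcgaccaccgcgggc
The first 5 hold AP-1 sequences and the last 2 do not. That overstates the share, as AP-1 lay this close in 7 of the 17 regions found in all 4 libraries. The PPARG sites at 7.7, 16.2 and 167.3 kb and the LHX2 site at 38.9 kb held none there and are not shown. The PPARG site at 58.0 kb had the highest p-JUN fold in the 9 windows, 15.5, in the replicate 2 library labelled stiff. In each other p-JUN library the PPARG site at 118.6 kb had the higher fold, as in soft replicate 1 with 13.7 against 13.2. The 58.0 kb region held 1 AP-1 sequence outside the 101 bases shown, and the TCF21 region held 0.

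The promoters of LRAT, DES and LHX2 are shown because they are rich in CpG and yet H3K4me3 was absent or found in 2 libraries only. HAND2 also met this description and is not shown. Richness in CpG is a property of most promoters with H3K4me3. Each sequence below is 120 bases before the start of the reference transcript on the hg19 plus strand, and capitals mark CpG.
LRAT (chr4:155665032-155665151): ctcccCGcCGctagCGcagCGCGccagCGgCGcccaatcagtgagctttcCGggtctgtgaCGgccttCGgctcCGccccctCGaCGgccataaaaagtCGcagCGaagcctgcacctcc
DES (chr2:220282979-220283098): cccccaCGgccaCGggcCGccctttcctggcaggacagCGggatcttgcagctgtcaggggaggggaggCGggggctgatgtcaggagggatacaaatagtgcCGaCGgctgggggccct
LHX2 (chr9:126773927-126774046): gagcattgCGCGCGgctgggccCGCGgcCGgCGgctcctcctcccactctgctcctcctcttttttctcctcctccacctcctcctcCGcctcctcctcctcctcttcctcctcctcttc

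To sort the genes by chromatin state, peaks within 1 kb of any start of a protein-coding transcript were counted. A gene was called bivalent with H3K4me3 in 4 of 4 libraries and H3K27me3 in at least 2 of 4, and active with H3K4me3 in 4 of 4, less H3K27me3 and H3K27ac in at least 1 list. It was called silent with no H3K4me3 in any library, and mixed with H3K4me3 in 1 to 3. Silent thus describes a peak list and not RNA, which was not analysed here. None of the 9 genes was active, against 33.5% of all protein-coding genes. PPARG, NGFR and TCF21 were bivalent, 3 of 9 against 1.7%. Each library pools many cells, so marks on the same chromosome and marks in different cells cannot be told apart. GATA4 carried H3K4me3 without acetylation, a state of 27.6% of genes. LHX2 and HAND2 were mixed (2.7% of genes). LRAT, GFAP and DES were silent without H3K27me3 (30.6%) and none was silent with it (3.86%), which made 3 of 9 silent in all against 34.5%.

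**Figure D1:**
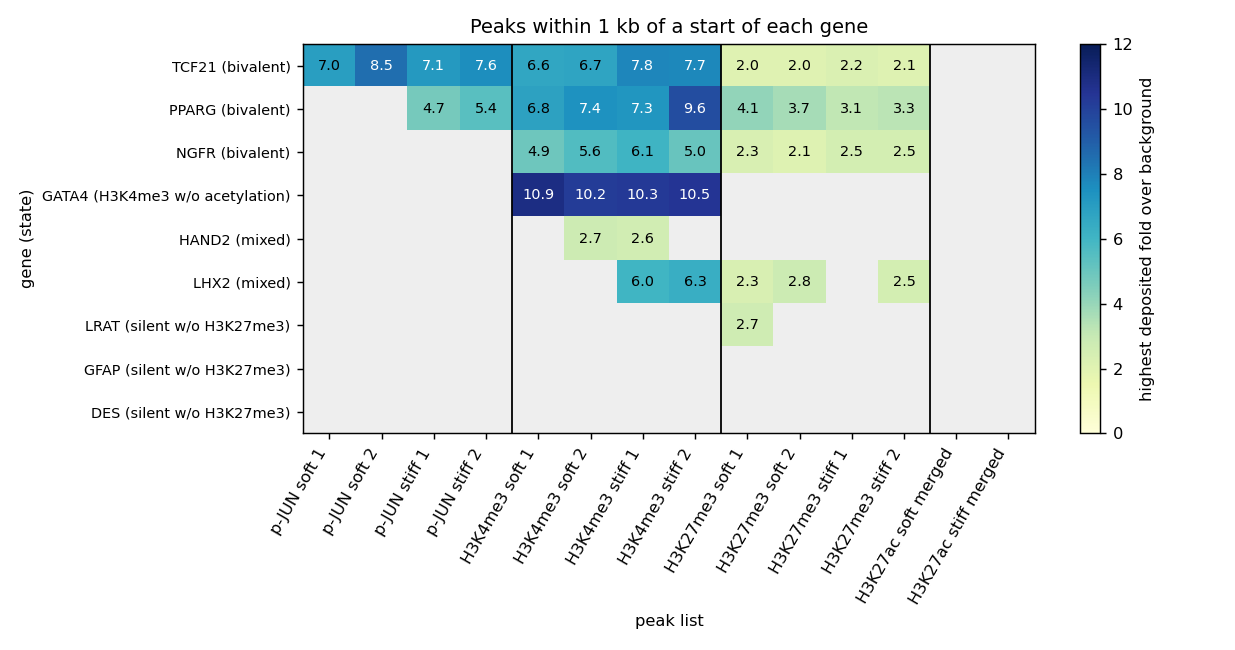
Highest deposited fold over background of a peak within 1 kb of a start, for each of the 9 genes (vertical) and each of the 14 peak lists (horizontal), with grey where no peak was listed. The 2 H3K27ac columns are empty for every gene, and TCF21, PPARG and NGFR have values in all 8 lists of H3K4me3 and H3K27me3.

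No H3K27ac peak lay within 1 kb of a start of any of the 9 genes, on either matrix, whereas 34.5% of all genes had one in at least 1 list. Among genes with H3K4me3 in 4 of 4 libraries the share was 53.7%, and among bivalent genes 17.6%. The H3K27ac lists were the shallowest of the narrow lists, with median summits of 27 fragments on soft against 26 on stiff, so weaker acetylation was not detectable at this depth. H3K4me3 was listed in 4 of 4 libraries for 4 of the genes (62.8% of all genes), in some libraries for 2 and in none for 3. H3K27me3 was listed in 4 of 4 libraries for 3 genes (2.43% of all genes) and in at least 2 for 4, LHX2 being the other (6.14%). p-JUN was listed in 4 of 4 libraries for 1 gene, TCF21 (38.2%), and at PPARG in the libraries labelled stiff only.

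Next, the bivalent genes were examined in turn. TCF21, a basic helix-loop-helix factor of mesenchymal precursors, was the only one of the 9 with p-JUN, H3K4me3 and H3K27me3 at its start in every library. Its H3K4me3 fold over local background was 6.62 and 6.73 on soft against 7.82 and 7.75 on stiff. Its H3K27me3 fold was 2.03 and 2.03 on soft against 2.22 and 2.10 on stiff. These H3K27me3 folds were low, at percentiles 6.49 to 15.4 of genes with a peak. Both stiff libraries lay above both soft libraries for each mark, but each fold is relative to its own library and the lists share no common scale. The 2 marks shared 1606 and 526 bases on soft against 1515 and 610 on stiff, which varied within each matrix by more than between them. The p-JUN region spanned the first kb with summits from 0.604 to 0.901 kb, and held 47 and 54 fragments on soft against 35 and 50 in the libraries labelled stiff, which overlap. Among the 336 bivalent genes, 33.3% had p-JUN in 4 of 4 libraries and 44.9% had H3K27me3 in 4 of 4.

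PPARG carried its H3K4me3 and H3K27me3 at the upstream group of starts, within 1703 bp of the gene start. H3K4me3 held 22 and 29 fragments at the summit on soft against 26 and 50 on stiff, at folds of 6.80, 7.43, 7.27 and 9.57. These folds lay at percentiles 19.5 to 48.8 of the genes with a peak. The H3K27me3 folds were 4.09 and 3.69 on soft against 3.10 and 3.28 on stiff, so both stiff values were lower, and they stood at percentile 98.6 of genes with a peak in soft replicate 1 and 74.2 in stiff replicate 1. The peaks of the 2 marks shared 426 and 384 bases on soft against 415 and 495 on stiff. No H3K4me3 peak was listed at any later PPARG start, including that of the adipocyte isoform at 64104 bp.

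NGFR, also called p75NTR, had H3K4me3 folds of 4.91 and 5.61 on soft against 6.09 and 5.05 on stiff, and the groups overlapped. These were low, at percentiles 3.71 to 9.23 of genes with a peak. Its H3K27me3 peaks began 1.10 to 1.88 kb past the reference start and counted through later starts at 1331 and 2098 bp. There the H3K27me3 folds were 2.30 and 2.08 on soft against 2.50 and 2.49 on stiff. They lay at percentiles 9.54 to 35.9 of genes with a peak. Of the 9 genes NGFR alone had a further H3K27me3 region in all 4 libraries, at -15.7 kb. H3K27ac was listed on both matrices just past the end of the gene, at 20.2 kb, with 33 fragments on soft against 18 on stiff. A p-JUN site in an NGFR intron at 13.3 kb held 56 and 51 fragments on soft against 29 and 37 in the libraries labelled stiff, with both stiff values lower. Its AP-1 sequence is printed above. That H3K27ac region was the only 1 of 9 in the windows without p-JUN in all 4 libraries.

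**Figure D2:**
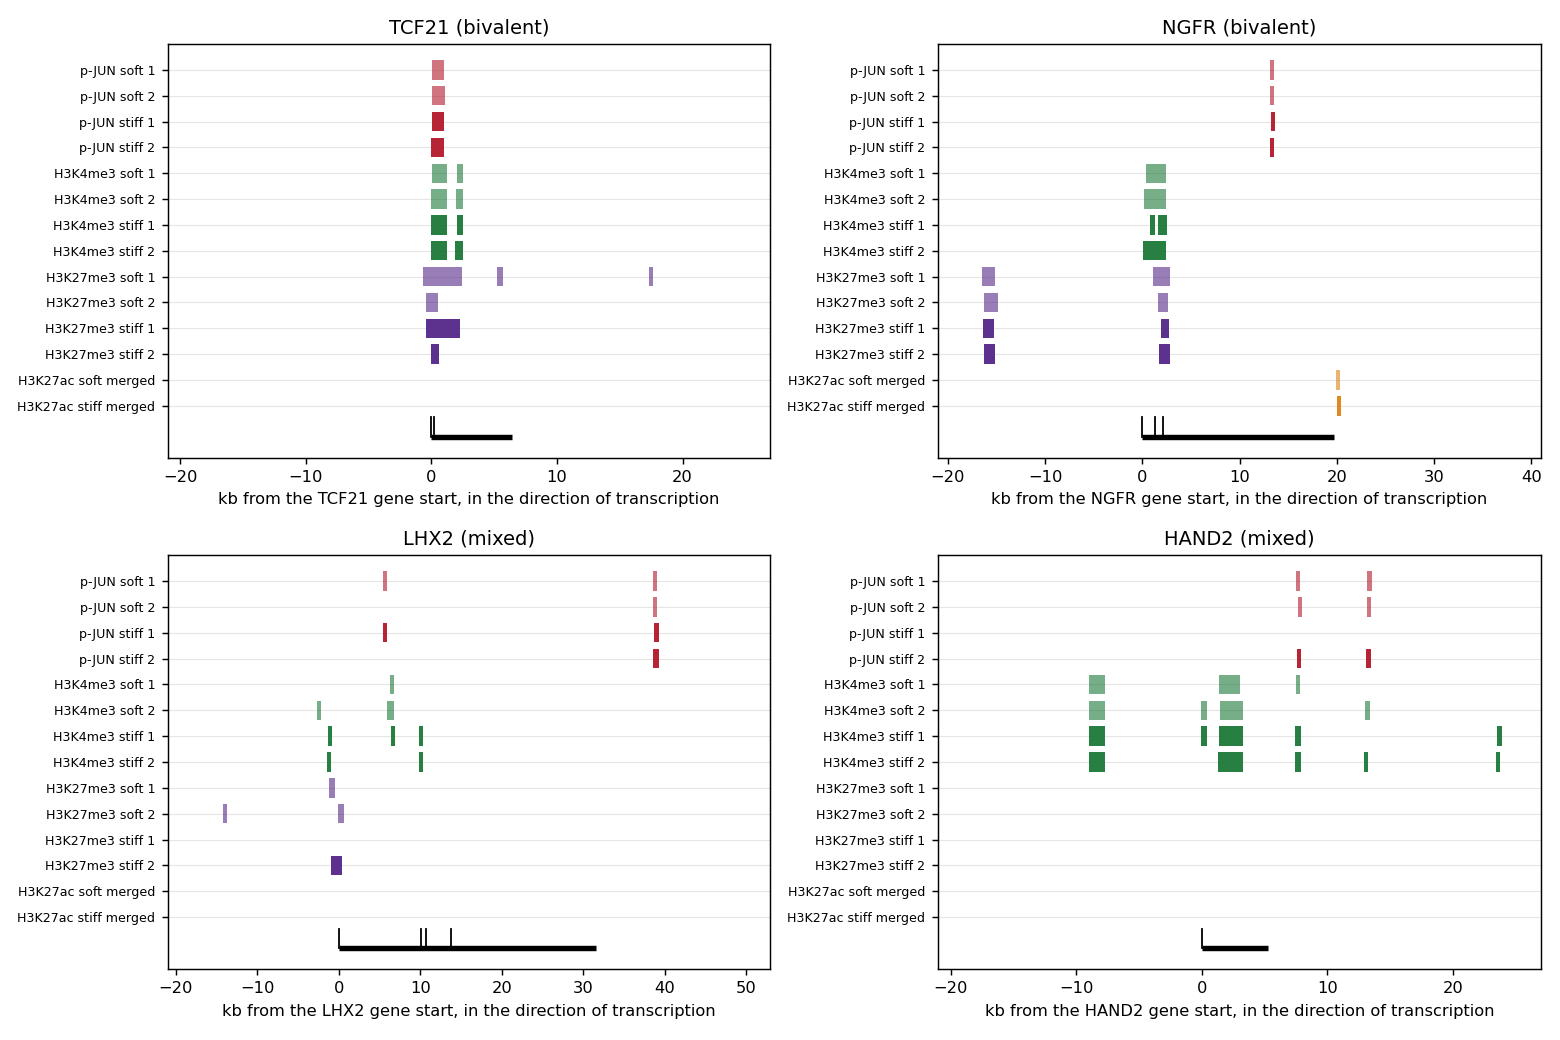
Peaks of the 14 lists (vertical) around TCF21, NGFR, LHX2 and HAND2, against the distance in kb from the gene start along transcription (horizontal). Black bars are genes, ticks are coding transcript starts, paler colours are soft libraries, and narrow peaks are widened to be visible. H3K27me3 and H3K4me3 overlap at TCF21 and NGFR, while HAND2 has no H3K27me3.

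The other genes with H3K4me3 at a start were GATA4, HAND2 and LHX2. Of these LHX2 alone had H3K27me3 there, in 3 of 4 libraries. GATA4, a zinc finger factor of the liver mesenchyme, had H3K4me3 in all libraries at its starts near 16 and 27 kb. At the first, 33 and 33 fragments were counted on soft against 34 and 41 on stiff, with folds of 10.9, 10.2, 10.3 and 10.5, and at the latter 90 and 129 on soft against 123 and 213 on stiff. The highest folds, all at the start near 16 kb, placed GATA4 at percentiles 59.9 to 74.6 of genes with a peak. Near 27 kb, where the reference transcript starts, the folds were 2.99 and 3.49 on soft against 3.10 and 3.70 on stiff. No H3K27me3 or H3K27ac peak was listed in its whole window of 123 kb. It had 3 p-JUN regions in 4 of 4 libraries, of which that at 85.2 kb lay at a start of the neighbour C8orf49. That one held 129 and 114 fragments on soft against 109 and 121 in the libraries labelled stiff. The region with the highest fold, in an intron at 49.9 kb, held 104 and 105 on soft against 108 and 117 in the libraries labelled stiff.

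HAND2, a basic helix-loop-helix factor, had no H3K27me3 and no H3K27ac in its window. At its own start H3K4me3 was listed in soft replicate 2 and stiff replicate 1 only, at 87 fragments in each and folds of 2.72 and 2.60. H3K4me3 was stronger at -8.3 kb, with 96 and 120 fragments on soft against 131 and 167 on stiff and folds of 10.2, 10.6, 11.0 and 10.04. A further region at 2.3 kb, beside a start of the noncoding neighbour HAND2-AS1, held 105 and 126 fragments on soft against 136 and 196 on stiff. At each of these 2 sites both stiff libraries had more fragments than both soft libraries, as did the median summit over the whole lists, at 120 and 137 on soft against 145 and 167 on stiff. p-JUN was listed at 7.7 and 13.3 kb in 3 of 4 libraries, with none in stiff replicate 1.

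LHX2, a LIM homeodomain factor that keeps stellate cells at rest in mice, was the only one of the 9 genes with H3K4me3 at a start in both libraries of 1 matrix and neither of the other. At the reference start, 10098 bp from the gene start, H3K4me3 was listed with 70 and 95 fragments on stiff and not on soft. A second H3K4me3 region at -1.1 kb held 22 and 32 fragments on stiff and was also not listed on soft. Soft replicate 2 alone had H3K4me3 at -2.4 kb, with 32 fragments. Over the whole window H3K4me3 covered 499 and 1260 bases on soft against 1201 and 866 on stiff, which overlap. H3K27me3 near the first start had folds of 2.31 and 2.79 on soft against 2.51 in stiff replicate 2, with no peak in stiff replicate 1. Peaks of the 2 marks met over 5 bases in stiff replicate 2 and in no other library. Soft libraries instead had H3K4me3 at 6.4 kb, beside LHX2-AS1, with 45 and 40 fragments, as did stiff replicate 1 with 40. The p-JUN site in all 4 libraries lay beyond the gene at 38.9 kb, with 43 and 31 fragments on soft against 30 and 33 in the libraries labelled stiff.

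The silent genes had no H3K4me3 or p-JUN at their starts. LRAT had no p-JUN, H3K4me3 or H3K27ac peak in its window of 166 kb. It held 4 H3K27me3 regions, none of them shared by more than 2 libraries. The only peak within 1 kb of a start was that of soft replicate 1, with a fold of 2.67 and a −log10 q of 1.71. GFAP and DES had no peak of any list at their starts, like 4993 of the coding genes. The start of the DES reference transcript had a GC content of 67.1% and a CpG ratio (observed over expected) of 0.71, and LRAT 60.7% and 0.82, while GFAP had a ratio of 0.36. The median ratio was 0.29 for genes silent without H3K27me3 and 0.73 for all genes. Of the 9 genes 6 had over 50% GC and a ratio over 0.6 in the 1001 bases around the reference start. LRAT and DES were the 2 of those 6 that were silent, against 12.9% of all such genes.

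Sites away from the start were listed at both filament genes. DES had 1 p-JUN region in all libraries, at -11.5 kb, with 73 and 54 fragments on soft against 79 and 124 in the libraries labelled stiff. Both stiff values were higher there, and H3K27ac at the same place was listed on soft alone, with 14 fragments. The H3K4me3 in the DES window lay at 23.2 kb, at a start of the neighbour SPEG. GFAP had a p-JUN region over its exons at 10.6 kb with 294 and 249 fragments on soft against 298 and 294 in the libraries labelled stiff. H3K27ac was listed there on both matrices, with 67 fragments on soft against 65 on stiff. A second region at 7.0 kb held 152 and 146 p-JUN fragments on soft against 160 and 170 in the libraries labelled stiff, with H3K27ac listed on stiff alone at 45. The third p-JUN region, at 17.2 kb, and the only H3K4me3 of the window lay at starts of CCDC103 and EFTUD2, and so belong to neighbours.

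PPARG had the most p-JUN regions of the 9 genes. Of its 10 regions 7 were listed in all libraries, which came to 3.74 per 100 kb of window. The median over all genes was 1.90, and 76.1% of genes had fewer. Per length GFAP stood higher, with 3 regions or 5.58 per 100 kb, and 90.2% of genes had fewer. That count includes the region at 17.2 kb, which lay at starts of the neighbours CCDC103 and EFTUD2. The strongest PPARG region lay over an exon at 118.6 kb with 388 and 320 fragments on soft against 354 and 353 in the libraries labelled stiff. The groups overlapped, and the peak stood at percentiles 96.1 to 97.4 of its lists. At 58.0 kb the fold was 13.2 and 10.5 on soft against 12.5 and 15.5 in the libraries labelled stiff, from 58 to 97 fragments. The region at 167.3 kb, beyond the gene, overlapped the window at its edge only, with its summits outside. There were 169 and 151 fragments on soft against 195 and 233 in the libraries labelled stiff, with both stiff counts higher. The folds overlapped, with 8.77 and 9.46 on soft against 8.93 and 9.56 in the libraries labelled stiff. The region at 16.2 kb held 152 and 114 fragments on soft against 140 and 176 in the libraries labelled stiff, which overlap. At 21.2 kb, within 1 kb of a minor start, p-JUN was listed in the libraries labelled stiff alone, with 49 and 66 fragments.

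H3K27ac at PPARG differed by place between the lists. It was listed on stiff alone at 16.2 kb (13 fragments), 118.5 kb (16 fragments) and 167.3 kb (29 fragments), and on soft alone at 7.8 kb (9 fragments), each time under a p-JUN region found in all 4 libraries. These counts are small, there is no replicate for H3K27ac, and the peaks ranked from percentile 1.9 to 77.4 of their lists. The H3K27ac summit at 167.3 kb also lay past the window edge. Across the 9 windows 6 of 9 H3K27ac regions were listed on 1 matrix alone (66.7%, against 45.9% of all H3K27ac regions). Of these 6, 4 were stiff-only and 2 soft-only, where all regions ran the other way with 10.9% stiff-only and 35% soft-only. When peaks with a −log10 q of at least 10 were kept, 2 stiff-only and 1 soft-only regions were counted.

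**Figure D3:**
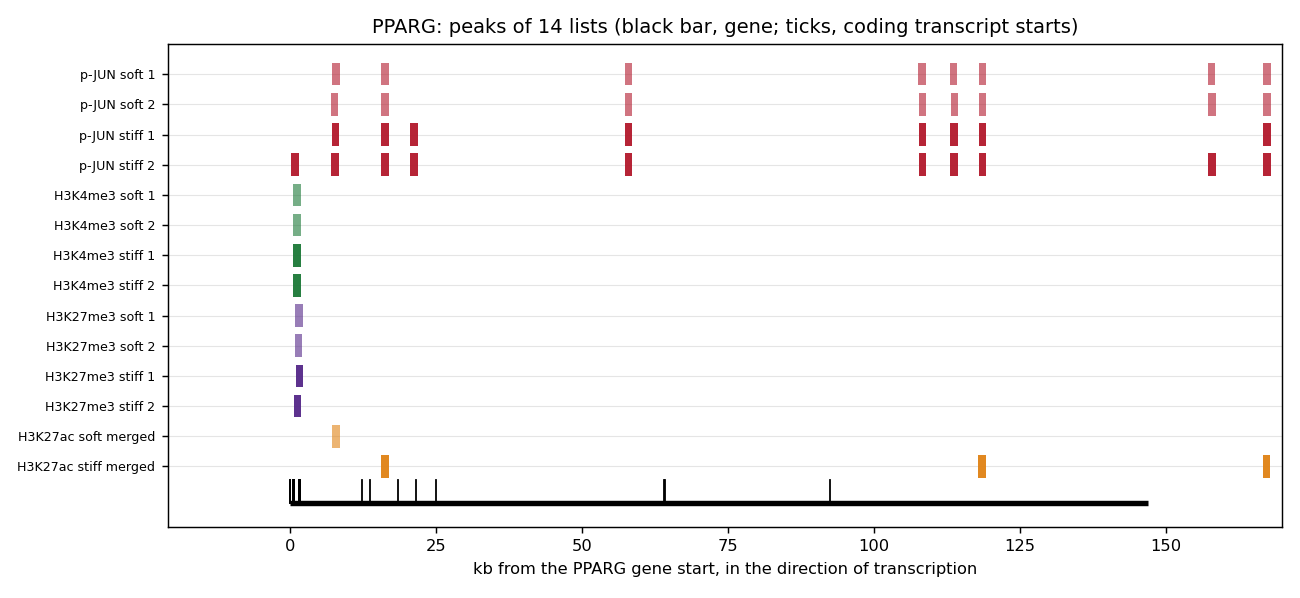
Peaks of the 14 lists (vertical) over PPARG against the distance in kb from the gene start along transcription (horizontal). The black bar is the gene, ticks are coding transcript starts, paler colours are soft libraries, and narrow peaks are widened to be visible. H3K4me3 and H3K27me3 lie together at the first starts, and p-JUN recurs at 7 sites in all 4 libraries.

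In all, 198 peaks fell in the 9 windows, 90 of p-JUN, 69 of H3K4me3, 27 of H3K27me3 and 12 of H3K27ac. They merged into regions, of which 17 of 27 for p-JUN were in all 4 libraries (65.8% of all p-JUN regions), 11 of 23 for H3K4me3 (78.9%) and 4 of 12 for H3K27me3 (10.2%). Of the 17 p-JUN regions 4 overlapped H3K27ac on soft (35.9% of all such regions), 6 on stiff (27.5%) and 8 on either (39.4%). Conversely 8 of 9 H3K27ac regions lay on p-JUN found in 4 of 4 libraries, against 79.7% of all H3K27ac regions. The AP-1 sequence, on either strand, lay whole within 50 bp of the strongest summit in 7 of the 17 (41.2%), against 33.5% of all p-JUN regions in 4 of 4 libraries read the same way. Over all 27 regions it was 8 (29.6%), against 29.3% of all p-JUN regions. The related CRE sequence TGACGTCA was found in 0 of the 17, against 0.878% of all regions in 4 of 4 libraries.

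To compare the matrices over whole windows, regions listed in both libraries of 1 matrix and neither of the other were counted. For p-JUN 2 of 27 regions parted the matrices (7.41%, against 4.49% of all), the PPARG site at 21.2 kb and a site at -19.1 kb of GFAP at the start of KIF18B. Both were stiff-only, a class of 2.75% of all p-JUN regions where soft-only made 1.74%. Both had a best −log10 q under 50, where 6.95% of all parted the matrices and 4.23% were stiff-only, against 2 of 18 here. Without p-JUN stiff replicate 2 there were 6, of which 4 were soft-only. For H3K4me3 5 of 23 did (21.7%, against 3.01% of all). The 4 stiff-only ones (1.77% of all) were the 2 at LHX2, 1 at HAND2 (23.7 kb, 15 and 19 fragments) and 1 at GATA4 (2.5 kb, 17 and 25 fragments). The soft-only one (1.25% of all) lay at GATA4 (44.4 kb, 28 and 24 fragments), on a p-JUN region found in all libraries. All 5 had a best −log10 q under 50, a class in which 7.89% of all H3K4me3 regions parted the matrices and 4.61% were stiff-only, against 5 and 4 of 16 here. For H3K27me3 0 of 12 did, against 8.02% of all (0.484% stiff-only and 7.54% soft-only). Without soft replicate 1 there were 2, without soft replicate 2 there were 3, and without stiff replicate 1 there was 1.

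The bases covered by peaks were then compared gene by gene. p-JUN covered 667 and 283 bases of the LHX2 window on soft against 888 and 753 in the libraries labelled stiff, a log2 ratio of 0.79. These are peak widths, and at 38.9 kb the folds ran the other way. They were 6.97 and 6.32 on soft against 6.21 and 5.17 in the libraries labelled stiff. The other LHX2 site, at 5.7 kb, was listed in replicate 1 of each matrix label only. For DES the lengths were 417 and 561 on soft against 637 and 585 in the libraries labelled stiff (log2 ratio 0.32). These 2 genes were above on stiff without overlap, as were 12% of all genes tested. For GATA4 p-JUN covered 3337 and 2969 bases on soft against 2149 and 2957 in the libraries labelled stiff (log2 ratio -0.30), the only 1 of 8 below (18.4% of all). H3K4me3 was above on stiff without overlap at HAND2, with 3338 and 3967 bases on soft against 4417 and 4512 on stiff. So it was at GFAP, with 1476 and 1483 on soft against 1493 and 1527 on stiff at the EFTUD2 start (23.1% of all above and 12.6% below). H3K27me3 was below on stiff at NGFR, with 3147 and 2441 bases on soft against 2049 and 2232 on stiff, and at LRAT, with 1223 and 931 on soft against 557 and 356 on stiff. That was 2 of 5 genes, against 32.3% of all below and 1.28% above. The LRAT bases lay in 4 weak regions, none shared by more than 2 libraries, with best −log10 q values of 1.68 to 1.86.

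Each of these 7 differences had a two-sided exact permutation p of 0.33, the smallest that 2 libraries against 2 allow, so none can pass 0.05. Summed over the 9 windows, p-JUN covered 11583 ± 1018 bases (SD, n = 2) on soft against 11658 ± 1737 (SD, n = 2) in the libraries labelled stiff, less apart than the replicates. H3K4me3 covered 15017 ± 1206 bases (SD, n = 2) on soft against 16192 ± 1921 (SD, n = 2) on stiff, also within the spread. H3K27me3 covered 7825.5 ± 2610 bases (SD, n = 2) on soft against 5630 ± 621 (SD, n = 2) on stiff. Its log2 ratio of -0.48 became -0.09 without soft replicate 1. The median over the genes covered in all libraries was -0.46 for the 4 such members and -0.74 for all genes, and soft replicate 1 had 19843 H3K27me3 peaks where the others had 6974 to 9228. H3K27ac covered 2841 bases on soft against 2574 on stiff, with no replicate check.

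**Figure D4:**
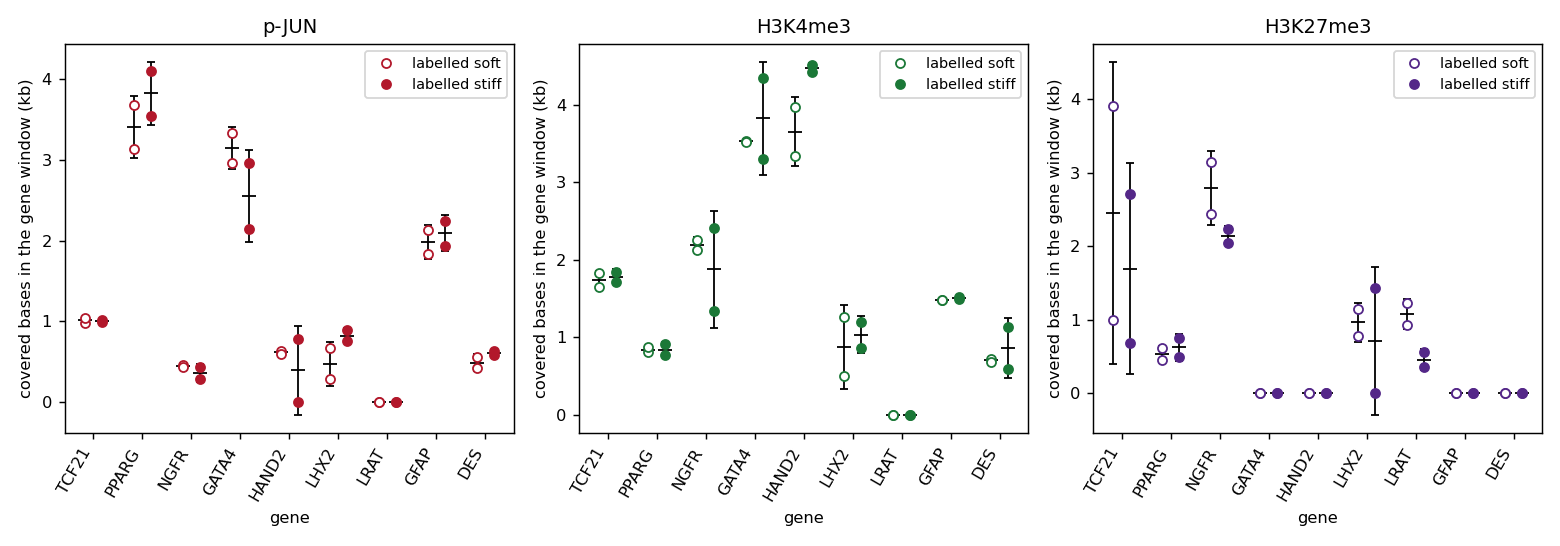
Bases covered by peaks (kb) in the window of each of the 9 genes, by library, for p-JUN, H3K4me3 and H3K27me3. Open points are libraries labelled soft, filled points those labelled stiff, and bars are the mean and SD of 2 libraries. Soft and stiff points interleave for most genes, and LRAT has neither p-JUN nor H3K4me3.

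To place the 9 genes among related ones, the same state rule was applied to lists of genes by role. Of 19 activated stellate cell genes 13 were active, among them the contractile genes ACTA2, TAGLN and MYL9, while CNN1 was silent. COL1A2, a fibrillar collagen gene named after its values were seen, was silent by the same rule. Of 10 hepatocyte genes 9 were silent (ALB, APOA1, APOB and TTR among them), as were 7 of 8 for Kupffer cells and 7 of 8 for sinusoidal endothelium. Silent here means no H3K4me3 alone, as 2 of the silent Kupffer cell genes, CD68 and CSF1R, had H3K27ac at a start in 2 and 1 lists and p-JUN in 4 of 4 libraries. These genes were named after their values were seen. Of 6 cholangiocyte genes 4 were silent (KRT7, KRT19 and 2 others) and 2 had H3K4me3 without acetylation (EPCAM and SOX9). Of 7 portal fibroblast genes 4 were silent and 3 had H3K4me3 without acetylation (THY1 among the latter, ELN among the former). CD34, also named after its values were seen, was silent in that list but had H3K27ac in 2 lists and p-JUN in 4 of 4 libraries.

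Among 18 further mesenchymal identity factors, 11 had H3K4me3 without acetylation, as GATA4 did (GATA6 and WT1 among them), 2 were active (TBX18 was the first listed), 2 were mixed and 3 were silent, HAND1 with H3K27me3. None of the 18 was bivalent. Of 12 genes of neural-like markers and neurotrophin signalling, the list nearest to NGFR in role, 3 were bivalent (NCAM1, a cell adhesion molecule, and RELN, a secreted matrix protein, were 2 of these), 3 active (CSPG4), 3 with H3K4me3 without acetylation and 3 silent (SYP). Of 19 genes of retinoid handling and signalling, the list nearest to LRAT, 4 were active (RARA, a retinoic acid receptor), 5 had H3K4me3 without acetylation, 4 were mixed (RBP4, the plasma retinol carrier) and 6 were silent (STRA6, the retinol uptake receptor, among them). Of 12 adipogenic and lipid droplet genes, the list nearest to PPARG, 2 were active, 5 had H3K4me3 without acetylation (CEBPA, CEBPD and SREBF1), 2 were mixed (CEBPB) and 3 were silent. Of 9 other intermediate filament genes 3 were active (VIM, vimentin), 1 had H3K4me3 without acetylation (SYNM) and 5 were silent (NES and PRPH), as GFAP and DES were.

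**Figure D5:**
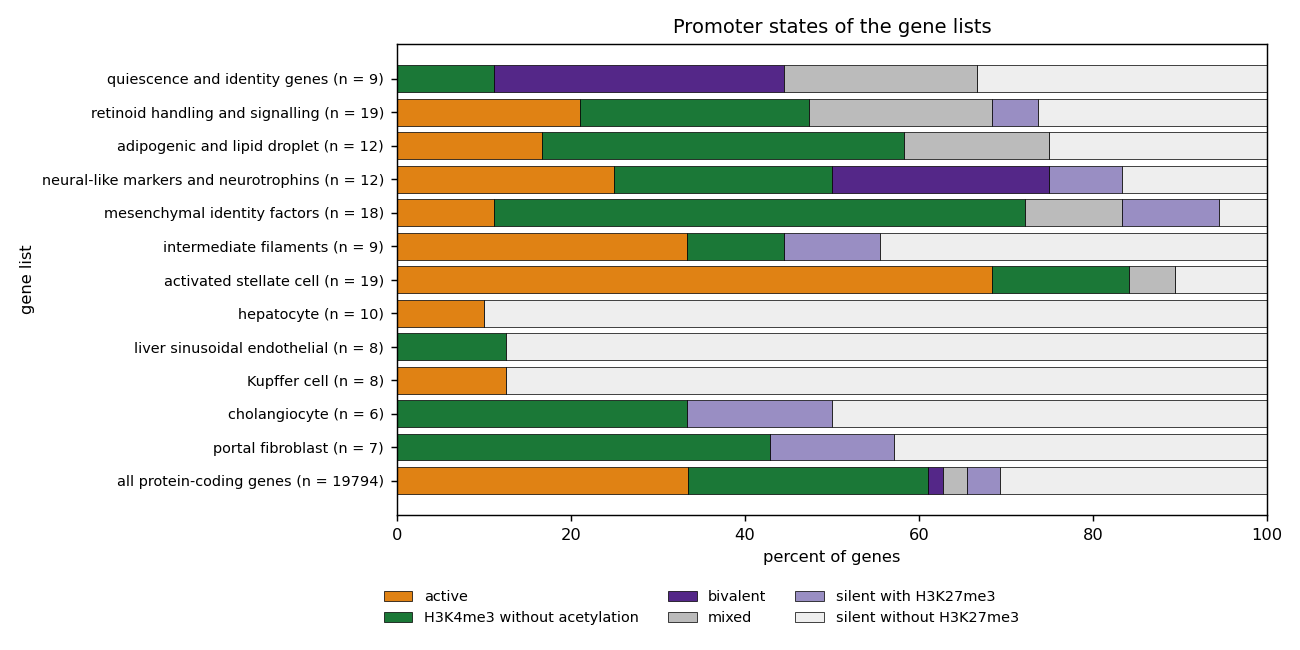
Percent of genes in each promoter state (horizontal) for the 9 quiescence and identity genes, the other gene lists and all 19794 protein-coding genes (vertical). The 9 genes have no active share and the largest bivalent share of the lists drawn, 3 of 9, and the activated stellate cell list has the largest active share, 13 of 19.

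Finally, the genes whose 14 promoter values came nearest to each member were listed, by Euclidean distance of log2(1 + highest fold). The nearest to NGFR were HEY2 (0.32), TP73 (0.33) and SOX3 (0.42), and those to TCF21 were PDE2A (0.33), WNT1 (0.38) and PAX9 (0.53). PPARG stood farther from any gene, with FOXB2 at 1.44, AGTR1 at 2.17 and SHISAL2B at 2.67. For LHX2 the nearest was TMEM121 (0.49), then FOXL2 and FOXL2NB (1.81 each). HAND2 was nearest to CFAP276 and ELAPOR1 (1.48 each) and to CFAP73 (1.61). GATA4 had close neighbours in SH2B2, ILKAP and AGPAT2 (0.07 to 0.08). LRAT, with its single value, was at or under 0.01 from VSNL1, PRSS55 and TSPY4. No other coding gene had the same 14 calls as PPARG or LHX2, while 62 genes had those of NGFR and 30 those of TCF21, themselves included.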

How the data were processed

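The authors trimmed CUT&Tag reads with Trim Galore, aligned them to hg19 with Bowtie2, marked duplicates with Picard and, per the paper's resource list, called peaks with MACS2, whose options and any control are not given in the sources used here. The deposited lists give each peak a fold (a ratio to local background), −log10 p and −log10 q values and an authors' score derived from q. Lists were narrow, except the broad H3K27me3 lists, and have no common scale. Peaks on 24 chromosomes were used (48163 to 54168 per list for p-JUN, 18096 to 18857 for H3K4me3, 6974 to 19843 for H3K27me3, and 18238 and 13322 for H3K27ac). Fragments at a summit were solved from its fold and its Poisson −log10 p, with 1 added to fragments and to background. They came out whole, to within 0.0001 of their size, for at least 99.9% of narrow peaks with −log10 p under 300. The H3K27me3 depth is unknown. Peaks of a mark sharing a base were merged into regions. GENCODE release 44 on GRCh37 gave genes and starts, and no peak lay past a chromosome end of that build. Samples were grouped by the treatment label, replicates by title. Single-gene lengths were compared by exact permutation tests. Alternatives changed promoter width, window, thresholds, list length and libraries. Named genes were the 9 members, up to the first 4 of each list (1 is not reported here), the 3 nearest genes and neighbours with a start under a peak. The members and lists were chosen with earlier results of these data known. Steps were tested on simulated data. Scripts ran on Python 3.11.15 with scipy 1.17.1, numpy 2.4.6, pandas 2.3.3 and, for plots, matplotlib 3.10.9.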

Additional observations from a re-analysis of the deposited data

How the results depend on the processing

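The state counts (0 active, 3 bivalent, 3 silent) stayed the same with promoters of 0.5 or 2 kb, H3K27me3 asked for in 1 or 4 libraries, stricter peaks (−log10 q of at least 10 for narrow and 2 for broad lists), lists of equal length, and without any single H3K4me3 or H3K27me3 library. With the whole window in place of the promoter 2 genes were active (GFAP and DES, through neighbours' H3K4me3), 4 bivalent and 1 silent. HAND2 had H3K4me3 without acetylation at 2 kb, and LRAT was silent with H3K27me3 when 1 library was enough.

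Stricter peaks left 1 p-JUN and 3 H3K27ac regions listed on 1 matrix alone. Lists of equal length gave 1 stiff-only and 2 soft-only p-JUN regions and no soft-only H3K27ac region, and brought the H3K27me3 log2 ratio from -0.48 to -0.09. Leaving out each library in turn, an alternative chosen after seeing the data, gave 2 to 6 such p-JUN regions, 5 to 7 of H3K4me3 and 0 to 3 of H3K27me3. Across the same omissions, which were planned for this value, the p-JUN log2 ratio took values from -0.15 to 0.15, that of H3K4me3 from -0.02 to 0.22 and that of H3K27me3 from -0.78 to -0.09.

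No pairing by replicate number was seen in the covered bases of all genes. The replicate deviations of soft and stiff libraries correlated at -0.03 (p-JUN), 0.05 (H3K4me3) and -0.02 (H3K27me3). Peak calls cannot show whether libraries of the same number shared a culture. With the replicate block (mean of the ratios within a number) the log2 ratios were 0.004, 0.11 and -0.44. With 1 library against 1 within each number, which asks for fewer calls and was also added later, a mean of 6 p-JUN, 9 H3K4me3 and 4.5 H3K27me3 regions were listed on 1 matrix alone.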
